A study of Homo sapiens with 2 samples.

Results

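HM13, BCL2L1, TPX2, PDRG1, TM9SF4, PLAGL2, POFUT1, KIF3B and ASXL1 are 9 protein-coding genes that lie beside ID1 on the long arm of human chromosome 20, in the band 20q11. They were chosen by their place next to ID1 and by the ratio between the libraries that some of them had shown in an earlier look at these data, and they are 9 of the 33538 genes counted. The ratio between the libraries of these genes is therefore a description with no test. They span 924.9 kb of GRCh38, from the first base of HM13 to the last base of ASXL1.

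Transcripts were counted in single cells of the human embryonic stem cell line H1 after 48 h in mTeSR1 medium with 50 ng/ml BMP4, a signal that drives these cells out of pluripotency. One library, WT, came from unmodified H1 cells. The other, GATA3 KO, came from the line KO-GATA3-06, in which the transcription factor gene GATA3 had been targeted. By the study's methods that line is 1 clone, selected from an H1 clone with a doxycycline-inducible Cas9 cassette at the AAVS1 site, and both clones had been described as karyotypically normal. The effects of clone, cassette and targeted gene cannot be told apart, and since each group is 1 library, no test was possible. The treatment text recorded for the WT library gives 1 h of BMP4, whereas its title and recorded duration give 48 h, which was used.

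After removal of cells with over 7500 detected genes or over 25% mitochondrial counts, 2519 of 3802 WT cells and 4450 of 6221 GATA3 KO cells remained, with 99587274 and 175285931 unique molecular identifiers (UMIs, each standing for 1 captured transcript). The median depth was 44415 UMIs per WT cell and 43131.5 UMIs per GATA3 KO cell. Both libraries held 8 identical cell barcodes. The GATA3 transcript was at 12.7 counts per 1000000 UMIs (CPM) in WT and 10.9 CPM in GATA3 KO, and a 3′ count cannot show whether its coding sequence is intact, so it does not check the labels. The stem cell markers POU5F1, SOX2 and NANOG were present in both libraries but at different levels. SOX2 was at 149.5 CPM in WT and 388.6 CPM in GATA3 KO (log2 ratio 1.37), POU5F1 stood at 917.9 and 1480 CPM (0.69), and NANOG was lower in GATA3 KO, at 75.6 and 55.7 CPM (-0.44). The libraries thus differed in these markers as well, and the part of that in the ratios below was not tested.

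The 9 genes serve unrelated cell functions. HM13 encodes signal peptide peptidase, which cuts leftover signal peptides in the membrane of the endoplasmic reticulum. BCL2L1 encodes BCL-XL, a mitochondrial protein that holds back apoptosis, and TPX2 encodes a spindle assembly factor that activates the kinase Aurora A in mitosis. PDRG1 is a subunit of a prefoldin-like chaperone complex, TM9SF4 a multispanning membrane protein, PLAGL2 a zinc finger transcription factor, POFUT1 the enzyme that adds O-fucose to Notch receptors, KIF3B a motor subunit of kinesin-2, and ASXL1 a chromatin cofactor of the deubiquitinase BAP1. Their neighbour ID1 encodes an inhibitor of helix-loop-helix factors and is a direct target of BMP signalling. As background, gains of this stretch of chromosome 20 recur in cultured human pluripotent cells and contain BCL2L1. UMI counts measure RNA and not the number of gene copies.

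RefSeq promoter windows of GRCh38.p14, taken as the 250 bases before the start site, were matched for 7 of the 9 genes (not HM13 and TPX2). Shown are the sequences of BCL2L1 and PDRG1. Of the 7 genes, these are the nearest on either side to the place where the library ratio dropped. TPX2, which lies between BCL2L1 and that place, had no window. Also shown is the stretch between PLAGL2 and POFUT1, which face away from each other with start sites 137 bases apart. Bases inside annotated exons were left off. All are written 5′ to 3′ on the minus strand, on which BCL2L1, PDRG1 and PLAGL2 are read, from chr20:31723990-31724213 for BCL2L1, chr20:31952047-31952296 for PDRG1 and chr20:32207744-32207854 for PLAGL2. Capitals mark matches to TATAAA or to the GC box GGGCGG on either strand.
BCL2L1: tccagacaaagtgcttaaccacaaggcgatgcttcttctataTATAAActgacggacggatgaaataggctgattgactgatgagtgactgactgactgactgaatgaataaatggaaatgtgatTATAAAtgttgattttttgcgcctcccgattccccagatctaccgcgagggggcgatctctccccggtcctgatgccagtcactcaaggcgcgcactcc
PDRG1: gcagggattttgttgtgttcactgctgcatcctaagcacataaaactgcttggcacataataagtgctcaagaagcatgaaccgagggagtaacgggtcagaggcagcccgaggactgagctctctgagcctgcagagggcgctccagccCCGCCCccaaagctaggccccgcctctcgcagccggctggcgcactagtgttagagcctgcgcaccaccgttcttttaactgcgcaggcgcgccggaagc
PLAGL2: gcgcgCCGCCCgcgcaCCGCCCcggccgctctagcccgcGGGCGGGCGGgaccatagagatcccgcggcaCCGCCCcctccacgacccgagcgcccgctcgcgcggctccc

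The BCL2L1 window shown held TATAAA 2 times and no GC box. It belongs to the start site at 31723963, and the window of a second BCL2L1 start site in the table, at 31722868, held neither motif. PDRG1 had 1 GC box, and the 111 bases between PLAGL2 and POFUT1 had 5, of which 2 overlap. In the table of 35116 promoters, 10.7% held TATAAA, 42.6% held GGGCGG, 32.0% held CCAAT and 22.3% held a word that GATA factors are known to bind (AGATAA, its form with a first letter of T, or either of these with a last letter of G), counted on both strands in 250 bases. CCAAT was found for KIF3B only, among the 7 genes. None of the 7 genes had any of the 4 GATA words in its window, which says only that these letters are not in these bases.

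HM13, BCL2L1 and TPX2 were higher in GATA3 KO than in WT, whereas among the other 6 KIF3B was 1.46-fold higher and the remaining 5 lay between 0.979-fold and 1.22-fold. HM13 was counted at 42.5 CPM in WT and 115.8 CPM in GATA3 KO, a 2.72-fold difference. BCL2L1 stood at 11.1 and 34.5 CPM, or 3.12-fold. TPX2 had 86.1 and 156.7 CPM, or 1.82-fold. The GATA3 KO library was thus the higher one for each of the 3 genes.

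On the scale used throughout, log2 of CPM plus 1 in GATA3 KO over the same in WT, these differences were 1.42 for HM13 (1.38 to 1.47), 1.56 for BCL2L1 (1.47 to 1.65) and 0.86 for TPX2 (0.82 to 0.89). Bracketed ranges are exact 95% intervals for counting error only. ID1, which lies between HM13 and BCL2L1, was at 465.7 and 1046 CPM, a log2 ratio of 1.17 (1.15 to 1.18). These 4 neighbours, spread over 287.4 kb, were all past 1.5-fold.

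PDRG1, at 27.9 CPM in WT and 30.9 CPM in GATA3 KO, had a log2 ratio of 0.14 (0.08 to 0.21). TM9SF4 was at 12.6 and 12.4 CPM, a log2 ratio of -0.03 (-0.12 to 0.07). PLAGL2 and POFUT1, which share the stretch shown above, had ratios of 0.26 (0.17 to 0.36) and 0.24 (0.12 to 0.35) on the log2 scale. Their levels were 11.9 and 14.5 CPM for PLAGL2 and 6.79 and 8.18 CPM for POFUT1. KIF3B was the one of the 6 nearest to 1.5-fold, with 13.3 CPM in WT and 19.5 CPM in GATA3 KO and a log2 ratio of 0.52 (0.43 to 0.60). ASXL1 had 13.7 and 16.1 CPM and a log2 ratio of 0.23 (0.14 to 0.31).

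**Figure D1:**
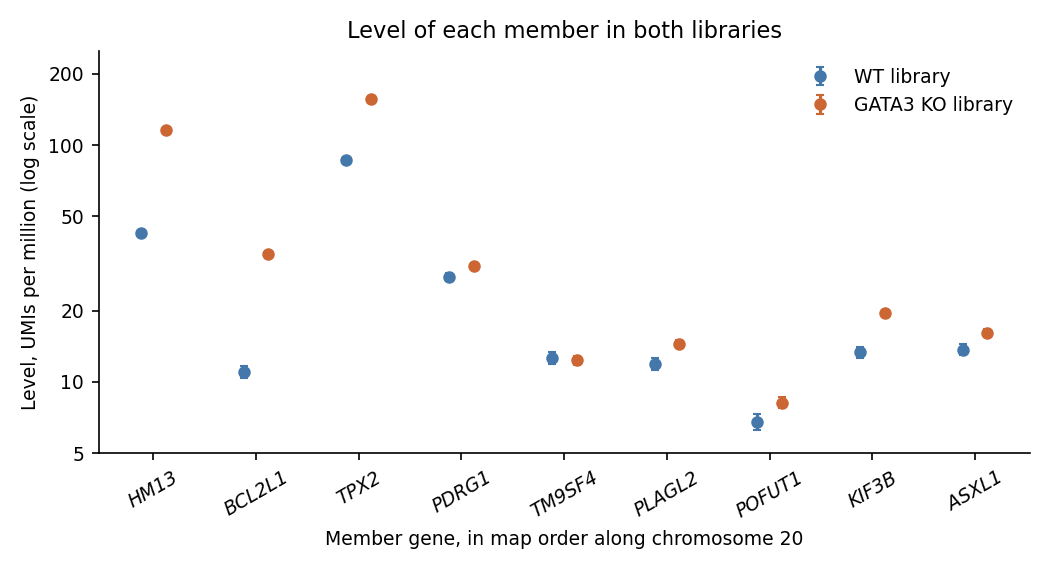
Level of each of the 9 genes, in CPM on a log axis, in the WT and GATA3 KO libraries, with bars for exact 95% Poisson intervals. HM13, BCL2L1 and TPX2 stand apart between the libraries, at 42.5 against 115.8, 11.1 against 34.5 and 86.1 against 156.7, while TM9SF4 is at 12.6 against 12.4.

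Of the 9 genes, 3 were at least 1.5-fold higher in GATA3 KO and none was 1.5-fold lower. Among the 9992 genes that reached 5 CPM in either library, 14.3% were at least 1.5-fold higher and 7.82% at least 1.5-fold lower in GATA3 KO. Because this contrast had been used to choose the genes, nothing is read from their count. The median log2 ratio was 0.26 over the 9 genes, 1.42 over HM13, BCL2L1 and TPX2, and 0.23 over the other 6. It was 0.22 over 281 chromosome 20 genes and 0.08 over all 9992, so the median of the 6 genes sat near that of their chromosome, with KIF3B above it. The name of a raised 20q11 segment therefore covers, in these counts, 3 of the 9 genes and ID1.

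Along the chromosome the unbroken run of genes past 1.5-fold ended, among genes of at least 5 CPM, between TPX2 and PDRG1. The last base of TPX2 and the first base of PDRG1 are 142.5 kb apart, and the log2 ratio went from 0.86 to 0.14 across that gap. Genes with few UMIs lie within it. DUSP15, which encodes a dual-specificity phosphatase, had 96 UMIs in WT and 312 in GATA3 KO, 1.85-fold in CPM (1.46 to 2.35). MYLK2, a muscle myosin light chain kinase, had 2 and 40 UMIs, 11.4-fold (2.95 to 97.1). FOXS1, a forkhead factor, had 7 and 20 UMIs, or 0.0703 and 0.114 CPM. Summed without a pseudocount, these 3 genes gave a log2 ratio of 1.01 (0.69 to 1.34), with DUSP15 the one whose start lies farthest from TPX2. TTLL9, whose annotated end overlaps PDRG1, had 2 and 10 UMIs, 2.84-fold (0.61 to 26.7).

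**Figure D2:**
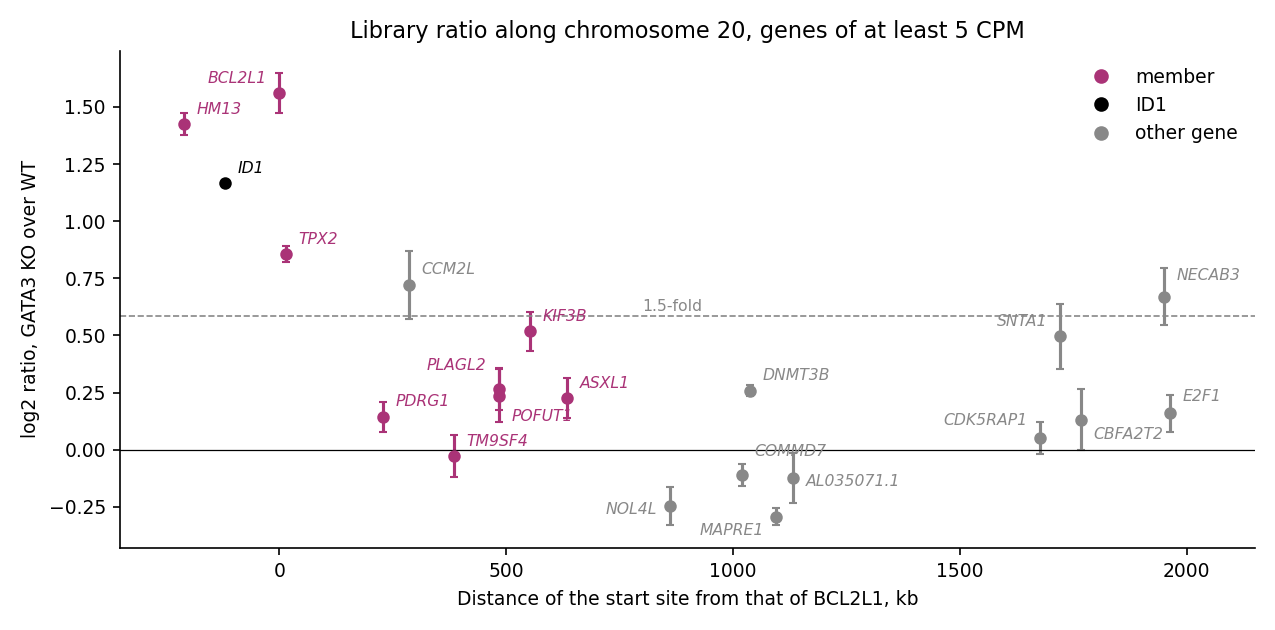
Log2 ratio of GATA3 KO over WT for each gene of at least 5 CPM against the distance of its start site from that of BCL2L1 in kb, with bars for exact 95% counting intervals and a dashed line at 1.5-fold. HM13, ID1, BCL2L1 and TPX2 lie between 0.86 and 1.56, PDRG1 is at 0.14, and of the genes to the right CCM2L (0.72) and NECAB3 (0.67) are above the line.

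Past PDRG1 the ratio did not stay flat at every gene. CCM2L, an endothelial scaffold protein gene, was at 2.92 CPM in WT and 5.47 CPM in GATA3 KO, a log2 ratio of 0.72 (0.57 to 0.87). The 4 genes of lower counts between PDRG1 and ASXL1 summed to 0.29 (-0.09 to 0.68). The 5 measured genes after ASXL1 on the list of at least 10 CPM began with NOL4L at -0.25 and COMMD7 at -0.11. DNMT3B, a DNA methyltransferase of pluripotent cells, followed at 0.26, the microtubule tip protein gene MAPRE1 at -0.29 and CDK5RAP1 at 0.05. No gene in that row was past 1.5-fold.

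Toward the centromere the edge could not be placed. The nearest measured genes on that side, NANP (-0.63), NINL (0.08) and GINS1 (-0.14), lie on the short arm, and 5890 kb separate NANP from HM13. The 10 genes with UMIs in between summed to 0.14 (-0.01 to 0.29) without a pseudocount, and ZNF337 and ZNF337-AS1 beside NANP held most of their UMIs. REM1, a small GTPase gene and a close neighbour of HM13, had 0 UMIs in WT and 15 in GATA3 KO, at least 2.84-fold higher against a floor of 3 UMIs for the WT library.

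Not every transcript inside the 4-gene run followed it. HM13-AS1, read from the opposite strand of HM13, had 92 and 139 UMIs, 0.86-fold in CPM (0.65 to 1.13). AL110115.2 had 22 and 42 UMIs, 1.08-fold (0.63 to 1.91), and COX4I2, a subunit of cytochrome oxidase, had 4 in each library. ABALON, which overlaps the start of BCL2L1, had 3 and 24 UMIs, 4.55-fold (1.38 to 23.6). ABALON and HM13-AS1 each lie on the strand opposite to the gene they overlap. Whether reads of that gene entered their counts was not tested, so the values of ABALON and HM13-AS1 are uncertain.

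A running median over 5 genes of at least 10 CPM, required to stay past 1.5-fold around BCL2L1, gave a longer run of 10 genes, from APMAP to TPX2. It crossed the centromere because ENTPD6 (0.75), PYGB (0.62) and ABHD12 (1.00) on the short arm were also past 1.5-fold, while APMAP was at 0.36 and both GINS1 and NINL inside the run were not raised. Beyond APMAP the next 5 genes were CST3 (0.78), NXT1 (-0.20), XRN2 (-0.02), KIZ (0.42) and RALGAPA2 (0.14). When each gene had to be past 1.5-fold itself, a rule added after seeing the data, the run was HM13, ID1, BCL2L1 and TPX2 at floors of 5, 10 and 20 CPM alike.

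Set beside other neighbourhoods, the 4 genes stood at the upper end. Over 7837 windows of 4 neighbouring genes on all chromosomes, the middle 95% of window medians ran from -0.54 to 0.69 on the log2 scale, and the window from HM13 to TPX2 had 1.29. The overlapping window from NINL to BCL2L1 had the same median, since it holds the same middle genes, and the next was BUD23 to CLDN4 on chromosome 7 with 1.11. In 33 windows all 4 genes were past 1.5-fold, and by the lowest of the 4 the window from HM13 to TPX2 was number 2. The lowest medians were -1.93, in the windows MT2A to MT1X and MT1G to NUP93 with the metallothionein genes of chromosome 16, and -1.88, PRKD3 to CYP1B1 on chromosome 2.

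**Figure D3:**
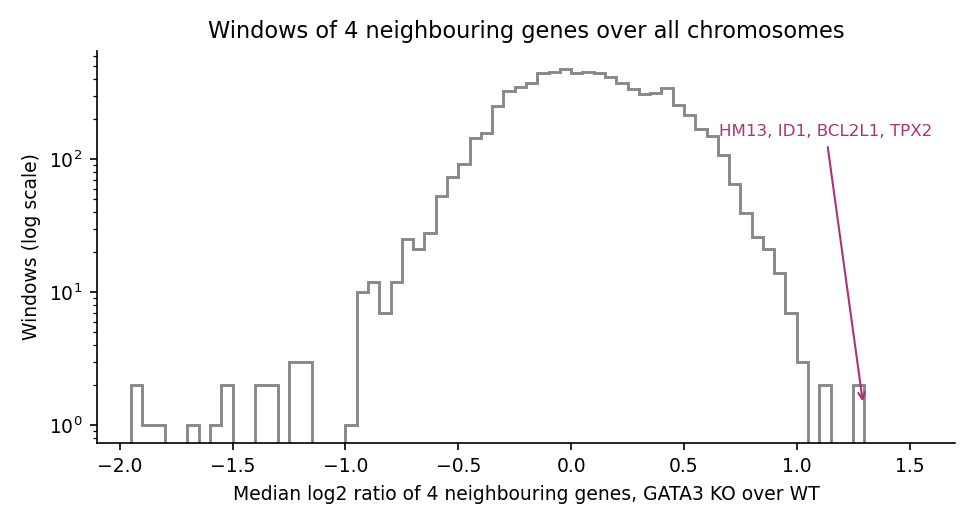
Number of windows of 4 neighbouring genes, on a log axis, by the median log2 ratio of GATA3 KO over WT. The window of HM13, ID1, BCL2L1 and TPX2 and the one overlapping it are at 1.29, above the other 7835 windows, whose highest value is 1.11. Windows of 4 genes were added after values were seen, so this place is a description.

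Over windows of 9 genes the highest medians were 0.89, both on chromosome 19 (ZNF358 to CTXN1 and PNPLA6 to TIMM44), and ENTPD6 to TPX2 followed with 0.86. The 3 lowest were on chromosome 8, FABP5 to CA2 at -0.95 and MRPS28 to LRRCC1 and ZC2HC1A to SNX16 at -0.80 each. A neighbourhood of genes that differ together was thus not found on chromosome 20 alone.

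Whether all GATA3 KO cells or only some of them carried the higher counts was examined cell by cell in random draws of 20000 UMIs from each cell. Of the cells, 1971 in WT and 3661 in GATA3 KO were deep enough, and 548 and 789 were left out. HM13 was then seen in 56.4% of WT cells (54.1 to 58.6) and 88.8% of GATA3 KO cells (87.7 to 89.8), and without thinning in 71.5% and 89.2%. BCL2L1 was seen in 18.5% (16.8 to 20.3) and 48.5% (46.9 to 50.1), unthinned 32.95% and 66.8%. For TPX2 the shares were 71.3% (69.3 to 73.3) and 84.7% (83.5 to 85.8), unthinned 77.3% and 87.7%. TM9SF4 was seen in 20.6% and 21.1% and PDRG1 in 42.2% and 45.4%. The remaining shares were 18.9% and 24.7% for PLAGL2, 12.4% and 16.2% for POFUT1, 22.9% and 32.6% for KIF3B, and 22.2% and 26.0% for ASXL1. No cell group of these libraries is known to lack these genes, so a share due to free RNA could not be set.

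HM13 and BCL2L1 are the pair with the largest ratios, and their levels varied less over the cell cycle than that of TPX2. Summed, they had a mean of 1.06 UMIs per WT cell and 2.98 per GATA3 KO cell. In WT the lower quartile, median and upper quartile were 0, 1 and 2 UMIs, and in GATA3 KO they were 2, 3 and 4. The quartiles of the GATA3 KO cells thus lay higher, while the 5th percentile was 0 in both libraries. At these counts a minor group of GATA3 KO cells at WT values would not be visible as a peak of its own. Neither gene was counted in 35.7% of WT cells (704 of 1971) and in 5.49% of GATA3 KO cells (201 of 3661). A Poisson distribution with the same means would leave 34.8% and 5.08% of cells at 0. The variance left over after Poisson counting, as a squared coefficient of variation, was 0.06 in WT and 0.03 in GATA3 KO. ID1 in the same cells had 0.45 and 0.73, so its counts were far less even from cell to cell than those of this pair summed. TPX2 had 0.49 in WT and 0.46 in GATA3 KO.

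**Figure D4:**
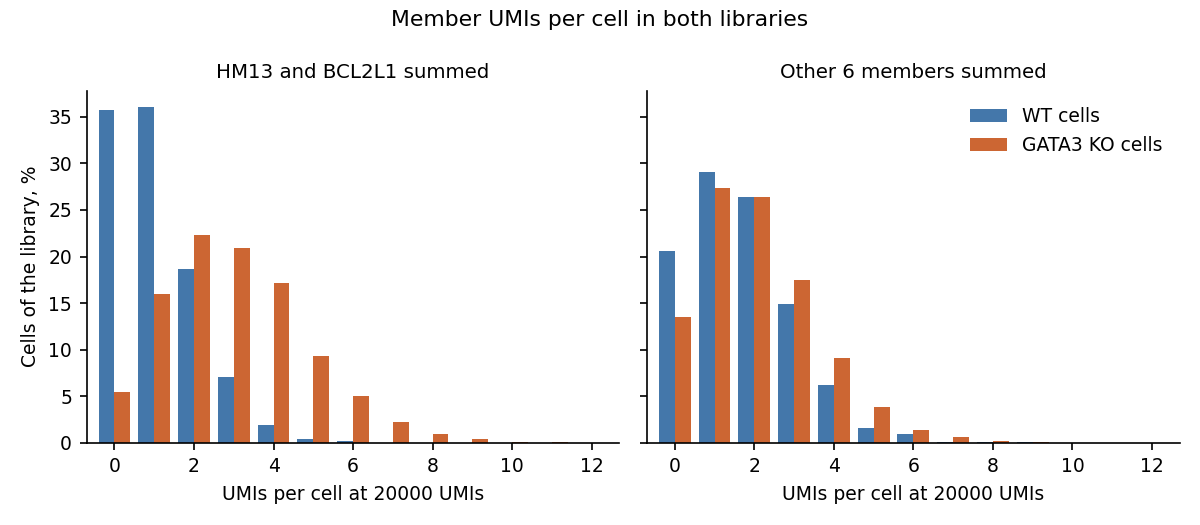
Share of cells of each library, in percent, by UMIs per cell after thinning to 20000 UMIs, for HM13 and BCL2L1 summed and for the other 6 genes summed. For the pair, 35.7% of WT cells and 5.49% of GATA3 KO cells are at 0 and the means are 1.06 and 2.98; for the other 6 genes the means are 1.67 and 2.03 and the bars largely coincide.

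These zeros limit how many GATA3 KO cells could be distributed like WT cells. If a fraction of them were, that fraction could be no larger than the share of GATA3 KO cells at or under the WT lower quartile divided by the share of WT cells there. At 20000 UMIs this limit was 15.4% (12.6 to 18.7) for HM13 and BCL2L1, and at 40000 UMIs, in 1479 and 2588 deeper cells, it was 5.71% (4.06 to 7.92). At 10000 UMIs it was 38.1% (34.7 to 41.9). The limit moved with depth in fixed cells too. The 1479 and 2588 deeper cells alone gave 38.0% (33.9 to 42.7) at 10000 UMIs and 15.7% (12.3 to 19.8) at 20000 UMIs. These limits hold for the cells deep enough to enter. At 40000 UMIs the pair was absent from 12.4% of WT cells and 0.155% of GATA3 KO cells. The reverse limit, on WT cells distributed like GATA3 KO cells, came from the upper quartile of the GATA3 KO cells. At 40000 UMIs, 8 or more UMIs were counted in 28.0% of GATA3 KO cells and in 1 of 1479 WT cells, a limit of 0.242% (0.00575 to 1.43).

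For all 9 genes summed, the median WT cell had 4 UMIs, and 83.7% of GATA3 KO cells (82.5 to 84.9) and 43.3% of WT cells had more. The limit on WT-like cells was 21.0% (17.8 to 24.6) at 20000 UMIs and 5.60% (3.67 to 8.33) at 40000 UMIs. For the 6 genes other than HM13, BCL2L1 and TPX2 it was 82.5% (75.9 to 89.8), so that sum hardly separates the libraries.

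A subset of raised cells would also make the raised genes vary together among GATA3 KO cells. Cells were divided by their UMIs of BCL2L1, PDRG1, PLAGL2 and KIF3B, and HM13, TM9SF4, POFUT1 and ASXL1 were then compared between the upper and lower cells. Only BCL2L1 among the dividing genes and only HM13 among the held-out genes were past 1.5-fold. The division could therefore show little of such a subset, and nothing is concluded from it. Terciles were intended, but tied counts left an uneven division of all cells into those with at most 1 UMI and those with 2 or more. The upper group held 711 of 1971 WT cells and 2123 of 3661 GATA3 KO cells. The upper GATA3 KO cells had 3.01 UMIs of the held-out genes per cell and the lower 3.06, a ratio of 0.984 (0.947 to 1.02). In WT cells the ratio was 1.01 (0.934 to 1.09). GATA3 KO cells with at least 1 UMI of BCL2L1 had 0.964 times (0.923 to 1.01) the HM13 of cells with none, and WT cells 0.981 times (0.864 to 1.11). Across cells, Pearson's r between HM13 and BCL2L1 was 0.01 in 1971 WT cells and -0.01 in 3661 GATA3 KO cells, a description of sparse counts that share a library. Over all 36 pairs of the 9 genes, most of which hold a gene not past 1.5-fold, the median r was 0.006 and 0.009. TPX2 was the exception, as the 1229 GATA3 KO cells with at least 4 UMIs of it had 1.09 times (1.04 to 1.14) the HM13 and BCL2L1 of the 1272 cells with at most 1. In WT, 841 cells with at least 2 UMIs had 1.05 times (0.965 to 1.15) that of the 1130 cells with at most 1.

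HM13 and BCL2L1 summed were past 1.5-fold in each group of cells that could be compared, with log2 ratios from 0.88 (0.07 to 1.77) in cluster 8 to 1.75 (1.54 to 1.97) in cluster 9. Cells were clustered without the genes of chromosome 20, and 13 of 18 clusters held at least 50 cells of each library. HM13 was past 1.5-fold in all 13, with log2 ratios from 1.10 (0.55 to 1.71) in cluster 12 to 1.81 (1.42 to 2.23) in cluster 13. Its WT level ran over the clusters from 32.2 to 44.8 CPM and its GATA3 KO level from 70.9 to 150.2 CPM, so the point values of the libraries did not overlap. BCL2L1 was past 1.5-fold in 12, with levels from 7.54 to 21.5 CPM in WT and 27.9 to 50.3 CPM in GATA3 KO, point values again without overlap. The exception to 1.5-fold was cluster 8, with a median of 1073 UMIs per cell, where 6 and 19 UMIs of BCL2L1 gave a log2 ratio of 0.40 (-0.93 to 1.91). Counting intervals of the libraries did overlap for both genes. In cluster 8 those of HM13 were 14.7 to 61.2 CPM in WT and 52.1 to 94.3 CPM in GATA3 KO. Those of BCL2L1 were 16.4 to 27.5 CPM in WT cluster 11 and 25.3 to 30.7 CPM in GATA3 KO cluster 6. TPX2 was past 1.5-fold in 11 of 13, from 0.40 (0.20 to 0.60) in cluster 11 to 1.09 (0.75 to 1.44) in cluster 13. The other 6 genes summed were past it in none, with a range of -0.19 to 0.47.

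Single genes of the 6 were more uneven over clusters. KIF3B was past 1.5-fold in 7 of 13 clusters, with a median log2 ratio over clusters of 0.59, and its interval lay above 0 in 7. PDRG1, TM9SF4, PLAGL2, POFUT1 and ASXL1 were each past 1.5-fold in 1 cluster. TM9SF4 was lower in GATA3 KO in cluster 11, at -1.07 (-1.65 to -0.51), and its interval lay above 0 in none.

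**Figure D5:**
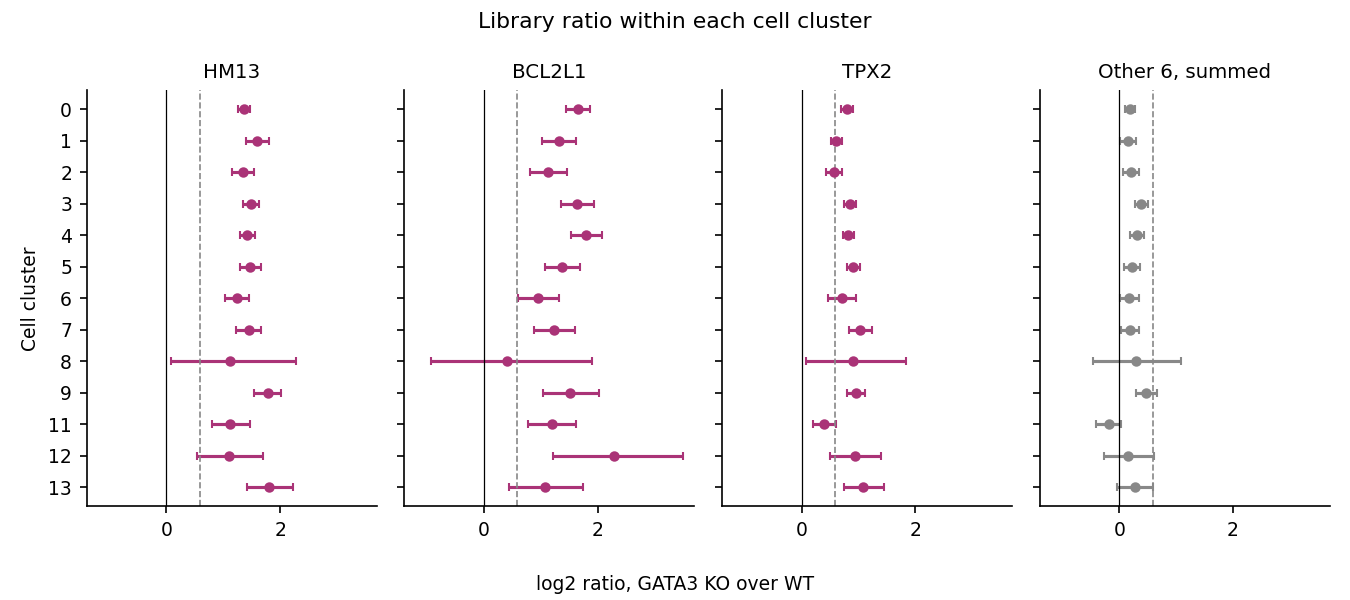
Log2 ratio of GATA3 KO over WT within each of 13 cell clusters for HM13, BCL2L1, TPX2 and the other 6 genes summed, with bars for exact 95% counting intervals and a dashed line at 1.5-fold. HM13 lies between 1.10 and 1.81 and BCL2L1 between 0.40 and 2.29, while the other 6 genes lie between -0.19 and 0.47.

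The clusters differed widely in what they expressed. Cluster 0 was led by LEFTY1, an inhibitor of Nodal signals, and cluster 1 by the homeobox gene IRX2. Cluster 4, led by FGF4, MIXL1, SP5 and EOMES among others, was primitive streak-like by 5 of its 10 leading genes, and cluster 9 was led by HAND1 and also held ISL1. In cluster 0 the log2 ratio was 1.37 (1.27 to 1.48) for HM13 and 1.65 (1.44 to 1.86) for BCL2L1. Cluster 4 had 1.43 for HM13 and 1.80 (1.53 to 2.07) for BCL2L1, and cluster 9 had 1.78 (1.55 to 2.02) and 1.52 (1.04 to 2.01).

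By level, HM13 in GATA3 KO was highest in cluster 9 (150.2 CPM), followed by cluster 13 (145.3 CPM), and lowest in clusters 12 (76.8 CPM) and 8 (70.9 CPM). Of the 12 steps between neighbours in that order, 1 was wider than the counting intervals, and in WT none was. BCL2L1 had no such step in either library, with clusters 11 (50.3 CPM) and 6 (27.9 CPM) at the ends in GATA3 KO. TPX2 had 6 in GATA3 KO and 3 in WT, and clusters 1 and 5 were its highest in both libraries, at 261.8 and 242.7 CPM in GATA3 KO and 171.4 and 128.8 CPM in WT. PLK1, KPNA2 and TOP2A, which act in mitosis, were among the leading genes of cluster 1, and TOP2A, INCENP and MKI67 among those of cluster 5. ID1 ran from 473.3 CPM in cluster 6 to 2668 CPM in cluster 9 in GATA3 KO and was past 1.5-fold in 12 of 13 clusters, with 0.31 (0.07 to 0.55) in cluster 8. Clusters 8, 11, 12 and 13 held shallow cells, with medians of 1073, 16760, 13023 and 9682 UMIs. The part of depth in these orders and in the ratios of those clusters was not tested.

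The per-cell limit was set again within the 9 clusters that kept 50 cells of each library at 20000 UMIs. For HM13 and BCL2L1 it ran from 7.15% (1.98 to 22.0) in cluster 9 to 24.2% (13.01 to 45.4) in cluster 6, an upper bound that leaves room for many WT-like cells. The share of cells with neither gene was between 33.02% and 40.2% in WT and between 2.65% and 8.22% in GATA3 KO. In none of these clusters did the shares of the libraries overlap.

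The cell cycle moved TPX2 but not its ratio by much. TPX2 was at 56.5 CPM in WT cells assigned to G1, 41.1 CPM in S and 151.5 CPM in G2/M, and at 101.9, 76.9 and 259.2 CPM in GATA3 KO cells. The log2 ratio was 0.84, 0.89 and 0.77 in turn. HM13 had 1.36 in G1, 1.42 in S and 1.53 in G2/M, and BCL2L1 between 1.55 and 1.56. The BCL2L1 level ran over the phases from 9.18 to 12.6 CPM in WT and from 29.1 to 38.9 CPM in GATA3 KO.

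Cells outside the quality limits had the same direction. In the 1012 and 1265 cells with over 7500 genes, the log2 ratio was 1.42 for HM13, 1.34 for BCL2L1 and 0.72 for TPX2. Cells with over 25% mitochondrial counts, 271 and 506, had 0.74 (0.46 to 1.03) for HM13, 1.64 (0.93 to 2.38) for BCL2L1 and 1.09 (0.80 to 1.38) for TPX2. In kept cells with under 2000 genes these were 0.92 (0.24 to 1.61), 1.83 (0.87 to 2.86) and 1.03 (0.48 to 1.58). The part of free RNA and of cell quality in these values was not tested.

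The partners of the 9 gene products were described from lists of 79 genes, of which 66 reached 5 CPM in either library, 10 were at least 1.5-fold higher and 4 at least 1.5-fold lower, beside 14.3% and 7.82% of all genes. In the BCL2 family, 1 of 11 was higher, BOK, a BAX-like effector (7.76 to 16.6 CPM, 1.01), and 1 lower, BCL2L2, an antiapoptotic relative of BCL2L1 (5.28 to 2.75 CPM, -0.74). MCL1, which also holds back apoptosis, was at 68.3 and 65.5 CPM. Of 16 spindle genes 4 were higher, namely the mitotic kinase gene PLK1 (0.99), CDC20, an activator of the anaphase-promoting complex (0.71), the importin KPNA2, which binds TPX2 (0.69), and the kinetochore gene CENPF (0.64). AURKA, the kinase that TPX2 activates, had 0.24, and RAN, the GTPase upstream of TPX2, had -0.23. The median over the spindle list was 0.19.

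Of 11 Notch pathway genes, LFNG, a glycosyltransferase that extends the O-fucose set by POFUT1, was higher (log2 interval 1.05 to 1.34) and HES1, a Notch target, was lower (-0.88). In the complex around ASXL1 and BAP1, HCFC1 was higher (0.64) and FOXK1 lower (-0.69) among 8. The prefoldin-like complex of PDRG1 had RUVBL2 (0.72) and POLR2E (0.84) higher and PFDN2 (-0.67) lower among 9. None of the 5 relatives of HM13 was past 1.5-fold, and SPPL2B (0.53) and SPPL2A (-0.43) were the farthest from 0. TM9SF1 (0.59) was higher among the 3 relatives of TM9SF4. KIF3A (0.14), the kinesin-2 partner of KIF3B, KIF3C (-0.07), which pairs with KIF3A in place of KIF3B, and PLAG1 (-0.33), the relative of PLAGL2, were not past 1.5-fold.

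Across 29 sums of a library and a cluster, the genes whose log2 CPM ran most like that of the 9 genes summed, among 5525 that reached 20 CPM, were PAK4, RNF26, CYB5R3, CTDNEP1, NAPA, CNN2, ERGIC3, KXD1, DDA1 and CHD7, with Pearson's r from 0.84 to 0.86. ERGIC3 is the one of these on chromosome 20. ID1 was number 866 in that order, with r of 0.56. The points share their library and the depth of their cluster, so r is a description.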

How the data were processed

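The deposited files hold raw counts of UMIs per gene and cell barcode, whole numbers that the authors had made from 10x Genomics 3′ v3 libraries with Cell Ranger 3.0.2 on its GRCh38 reference. Reads shared by overlapping genes can be misplaced in such counts, and a low-depth cell misses most low genes. Limits of 7500 detected genes and 25% mitochondrial counts followed the study's methods. Scrublet (scanpy 1.11.5) called 1 and 2 cells as doublets, too few to rely on, so removal of the 116 and 310 top-scoring cells was an alternative. Counts were summed per library and divided by its total, with a pseudocount of 1 CPM in ratios. Clusters came from Seurat 5.3.0 (2000 variable genes per library, none on chromosome 20, CCA integration over 30 dimensions, resolution 1.2), with cell cycle phases scored there without TPX2. Intervals are exact Poisson, Clopper-Pearson or binomial and cover counting error only. Positions came from GENCODE 44 by gene ID. The scripts were tested on simulated data.

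The 9 genes and all lists were chosen with earlier results of these data known. The genes named were the 9 and ID1, those of the raised run and 5 beyond each end, 10 with the most similar profile, list members past 1.5-fold (otherwise the 2 farthest from 0), and the 3 highest and 3 lowest windows of 9 genes. Low-count genes in the gaps, windows of 4 genes, CCM2L and NECAB3, GATA3, POU5F1, SOX2, NANOG, MCL1, AURKA and RAN, and leading cluster genes were added after values were seen. Alternatives covered cell limits, doublets, scaling, pseudocount, cell weights, members, floors, run rules, depth and clustering.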

Additional observations from a re-analysis of the deposited data

How the results depend on the processing

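No paired analysis was possible because each group has 1 library and no result comes from a test. All values keep counting error as their only error. The median log2 ratio of the 9 genes (0.26) was 0.21 over all deposited cells and 0.43 as the mean of per-cell CPM, and the ratio of their sum (0.85) was 0.78 over all deposited cells. The raised run of 10 genes had 5 genes at a floor of 5 CPM, 6 at 20 CPM, 4 with a running median of 3 genes, 1 when every gene with 1 UMI in each library entered, and 4 when each gene had to pass. The share of GATA3 KO cells above the median WT cell (83.7%) was 72.1% without TPX2, 71.4% at 10000 UMIs, 90.8% at 40000 UMIs, 86.1% and 75.04% at 20000 and 10000 UMIs in cells of at least 40000 UMIs only, 78.5% for HM13 and BCL2L1 and 87.4% with TPX2 added to them. The limit on WT-like cells (21.0%) was 31.4% and 5.60% at 10000 and 40000 UMIs, 28.3% at 10000 UMIs in cells of at least 40000 UMIs only, 14.4% and 28.8% at the 10th and 50th percentile of WT cells, 15.4% for HM13 and BCL2L1 and 15.0% with TPX2. The lowest ratio of the summed genes over clusters was 0.39 (cluster 11), over cell cycle phases 0.83, and for HM13 and BCL2L1 0.88. The ratio between cells high and low in the dividing genes (0.984) changed sides to 1.05 (1.02 to 1.08) when TPX2, which follows the cell cycle, joined the held-out genes. With TPX2 added, WT cells had a ratio of 1.06 (1.01 to 1.12). The restriction to HM13 and BCL2L1, with or without TPX2, the restriction to deep cells and the gene-by-gene run were chosen after seeing the data. The other 34 alternative values for these 7 results moved by less than their counting interval, or by less than 1.5 times for the run. For single genes and lists 99 values stayed likewise and 15 moved, none of them in direction. Causes of these moves were not tested beyond what each alternative changes. Depth limits most of what single cells can show here: at 20000 UMIs BCL2L1 was seen in 48.5% of GATA3 KO cells.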
